A study of Homo sapiens with 2 samples.

Results

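Hotspot-rich bins are stretches of the human genome in which both osteosarcoma lines of the study, Saos-2 and U2OS, had many DNase I hypersensitive sites. Chromosomes 1 to 22 of hg38 were divided into 28749 bins of 100 kb. Bins were chosen by their hotspot counts: a member had at least 6 hotspots of Saos-2 and at least 6 of U2OS, with each hotspot placed by its midpoint. Bins that held part of a chain of at least 8 hotspots of 1 line, with neighbours at most 2 kb apart, were left out. The rule kept 857 bins, 2.98% of all bins, and left 27892 other bins. They held 6550 of the 50120 Saos-2 hotspots on these chromosomes (13.1%) and 6792 of the 61903 U2OS hotspots (10.97%).

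Saos-2 and U2OS are established human osteosarcoma cell lines, and the labels name no treatment. Nuclei of each were digested briefly with DNase I, and the released fragments were sequenced from 1 library per line. The data are 1 list per line of hotspots, the intervals that the authors called as cut more often than background at a false discovery rate of 0.05. Without replicates no difference between the lines or between regions could be tested, so shares carry Wilson 95% intervals that cover counting error only.

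DNase I cuts where nucleosomes have been displaced, which happens mainly at active promoters, enhancers and insulators. Genes with demanding or varied regulation often have several such elements around and inside them, whereas in clusters of short, broadly expressed genes each gene brings its own promoter. A count of hotspots per bin therefore does not distinguish many promoters from many distal elements around 1 gene. Neither accessibility nor a hotspot count is a measure of expression.

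A set of 5 promoters shows what the strongest shared starts in the richest bins look like. They were the highest by summed significance among genes whose start lay inside one of the 12 bins with the most hotspots and whose window, from 250 bases before to 50 after the start, met a hotspot of both lines. Of the 46 protein-coding genes touching those 12 bins, 36 had a start in the RefSeq promoter table (GRCh38, the primary assembly of hg38), and 23 of these had such a window. AP2A1 also ranked among them, but its start lay outside the bin. BCKDHA encodes a subunit of the branched-chain ketoacid dehydrogenase, EXOSC5 a subunit of the RNA exosome, MDC1 a mediator of the DNA damage checkpoint, FUZ a planar polarity effector of ciliogenesis, and PA2G4 a growth-associated RNA-binding protein. Each sequence reads 5′ to 3′ in the direction of its gene, and capitals mark matches to the motifs listed after them.
BCKDHA, plus strand, chr19:41397568-41397867: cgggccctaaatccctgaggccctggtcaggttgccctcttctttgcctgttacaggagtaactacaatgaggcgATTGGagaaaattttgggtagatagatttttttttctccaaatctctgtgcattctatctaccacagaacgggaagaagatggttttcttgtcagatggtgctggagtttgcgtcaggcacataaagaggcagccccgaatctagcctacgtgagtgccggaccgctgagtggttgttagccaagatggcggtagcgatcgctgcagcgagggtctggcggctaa
EXOSC5, minus strand, chr19:41397310-41397609: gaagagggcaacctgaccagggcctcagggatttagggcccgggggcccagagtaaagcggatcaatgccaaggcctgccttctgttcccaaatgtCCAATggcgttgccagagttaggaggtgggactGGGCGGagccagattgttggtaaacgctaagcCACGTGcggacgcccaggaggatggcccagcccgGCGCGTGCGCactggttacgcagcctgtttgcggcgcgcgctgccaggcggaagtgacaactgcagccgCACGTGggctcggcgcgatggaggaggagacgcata
MDC1, minus strand, chr6:30717232-30717531: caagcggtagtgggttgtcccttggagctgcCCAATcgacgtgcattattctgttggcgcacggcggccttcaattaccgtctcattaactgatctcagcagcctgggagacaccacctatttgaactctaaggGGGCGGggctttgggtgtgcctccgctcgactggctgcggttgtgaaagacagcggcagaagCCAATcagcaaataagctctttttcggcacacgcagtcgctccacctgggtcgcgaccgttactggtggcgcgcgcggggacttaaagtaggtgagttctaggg
FUZ, minus strand, chr19:49813243-49813542: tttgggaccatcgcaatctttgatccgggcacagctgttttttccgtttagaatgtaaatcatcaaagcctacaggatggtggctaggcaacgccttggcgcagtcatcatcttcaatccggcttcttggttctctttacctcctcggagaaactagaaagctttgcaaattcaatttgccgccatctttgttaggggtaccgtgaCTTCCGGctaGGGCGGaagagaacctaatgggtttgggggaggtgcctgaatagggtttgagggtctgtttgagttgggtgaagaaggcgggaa
PA2G4, plus strand, chr12:56104309-56104608: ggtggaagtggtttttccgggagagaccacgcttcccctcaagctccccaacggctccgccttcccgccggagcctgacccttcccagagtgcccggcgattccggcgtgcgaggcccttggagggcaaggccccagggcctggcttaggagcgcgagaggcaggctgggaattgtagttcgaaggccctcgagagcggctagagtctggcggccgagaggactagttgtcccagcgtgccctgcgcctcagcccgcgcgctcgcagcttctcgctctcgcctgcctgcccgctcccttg
BCKDHA and EXOSC5 are transcribed in opposite directions from a shared hotspot. Its authors' significance, the −log10 of a p or q value, was 28.5 in both lines. The MDC1 hotspot reached 23.3 in Saos-2 and 17.6 in U2OS. The hotspot at FUZ had 20.02 and 20.07, and that at PA2G4 17.9 and 20.1. All 300 bases of each of the 5 windows were covered in both lines.

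The motifs searched, on both strands, were those of AP-1, ETS, NRF1 and TEAD factors, the CCAAT, GC and TATA boxes, the E-box and the cyclic AMP response element. PA2G4 held none of them and BCKDHA a single CCAAT box. EXOSC5 held a GC box, a CCAAT box, 2 E-boxes and an NRF1 match, where the E-box was read as CACGTG. FUZ held an ETS match and a GC box, and MDC1 a GC box with 2 CCAAT boxes. Over the 1465 promoters whose start lay in a hotspot-rich bin, 70.1% held a GC box, read as GGGCGG, compared with 58.9% of all 15101 promoters. The CCAAT box was found in 40.5% and 36.0%. For the ETS motif, read as CCGGAAG, the shares were 17.3% and 14.4%. For TEAD, read as GGAATG, they were 13.3% and 11.7%. Those of AP-1, read as TGANTCA, were close to each other, at 6.01% and 5.70%. The TATA box, read as TATAAA, was less frequent, at 7.30% and 9.71%. The cyclic AMP response element, read as TGACGTCA, stood in 2.39% and 2.65%. Among promoters with a hotspot of both lines in the window, the GC box stood in 78.2% of the 811 in hotspot-rich bins and 73.2% of the 5274 elsewhere, the ETS motif in 23.8% and 26.1%, and NRF1 in 13.2% and 16.99%. In this subset the TATA box stood in 6.29% in hotspot-rich bins and 4.001% elsewhere, and AP-1 in 5.67% and 3.92%. For the TATA box, the ETS motif and NRF1 this order was opposite to that without the condition on hotspots. Without it, NRF1 stood in 9.01% of promoters in hotspot-rich bins and 8.64% of all promoters. A match is a run of letters and was not shown to be bound.

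The counts that selected the bins are described first. A hotspot-rich bin held 12 to 29 hotspots of both lines together, with a median of 15, and a median of 7 in each line. The highest count was 20 in Saos-2 and 17 in U2OS. The mean was 7.64 Saos-2 and 7.93 U2OS hotspots per bin, against 1.74 and 2.15 over all bins. A median of 2053 bp per bin was covered by Saos-2 hotspots and 2215 bp by U2OS hotspots. The lines were close in most of the bins: they differed by at most 2 hotspots in 645. U2OS had more in 365 bins, Saos-2 in 285, and 207 were equal. A 2-fold or larger difference occurred in 9 bins in favour of U2OS and 8 in favour of Saos-2.

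**Figure D1:**
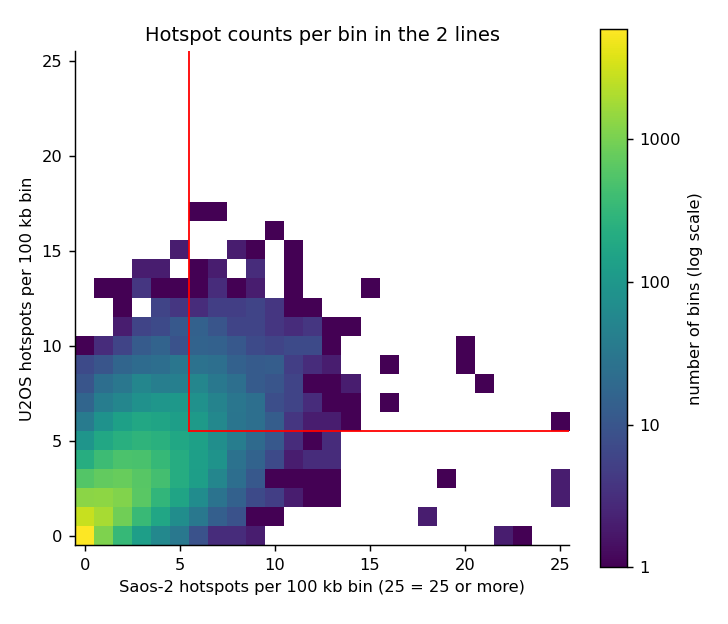
Number of 100 kb bins of chromosomes 1 to 22 by hotspots in Saos-2 (horizontal axis) and in U2OS (vertical axis), as a colour on a log scale, with the selected region outlined. The outline holds the 857 hotspot-rich bins and the 4 bins left out for a chain, and the plot shows that the threshold lies within a continuous distribution with no gap at 6 hotspots.

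No gap in the distribution separates the members from the rest. The line with fewer hotspots had exactly 6 in 440 members, and 112 members had 6 in both lines. Just outside, 799 bins had 5 in the line with fewer. Of the bins that missed on 1 line by a single hotspot, 289 had at least 6 in Saos-2 and 5 in U2OS, and 331 had the reverse. At least 6 hotspots were found in 1859 bins in Saos-2 and 2385 in U2OS, so fewer than 1 in 2 of each line's rich bins were rich in both. At the other end, 5893 bins had no hotspot in either line.

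The selected sites were then compared between the lines by overlap of at least 1 bp, which the rule did not use directly, although a shared site counts toward both thresholds. Of the Saos-2 hotspots in hotspot-rich bins, 69.9% (interval 68.8 to 71.0%) were overlapped by U2OS, against 56.6% in other bins. Of the U2OS hotspots, 66.6% (65.5 to 67.7%) were overlapped, against 44.4%. With lists of equal length the order of the lines turned, to 68.1% in Saos-2 and 71.3% in U2OS. Other bins include those with hotspots of 1 line only, where overlap is impossible apart from bin edges. In the 15222 other bins with a hotspot of both lines and no chain, the shares were 60.7% and 53.04%. Overlap was higher where the line with fewer hotspots had more of them, up to about 5 hotspots, and varied little above that. In bins with 1 such hotspot it was 51.3% in Saos-2 and 38.8% in U2OS. With 5 it was 68.5% and 65.6%, with 6 it was 69.6% and 64.9%, and with 8 or more 70.2% and 69.0%. The members therefore continue a gradient, and the bins with 5 hotspots just outside the rule had shares near those with 6.

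**Figure D2:**
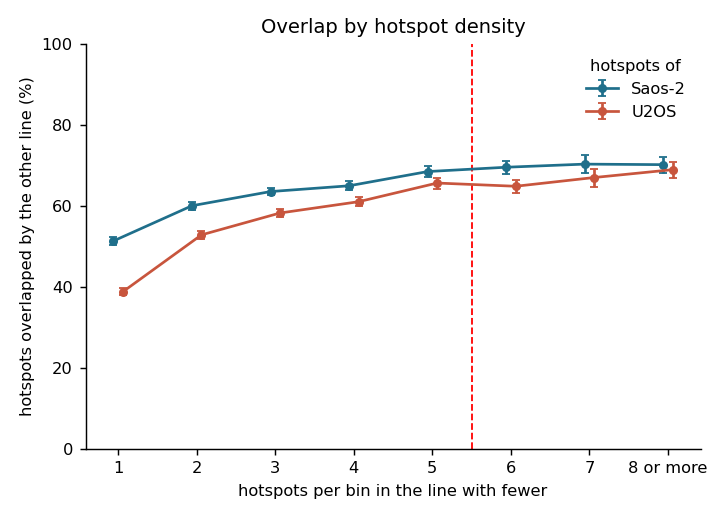
Share of hotspots overlapped by the other line (vertical axis, percent, with Wilson 95% intervals) by the number of hotspots in the line with fewer per bin (horizontal axis), for Saos-2 and U2OS. The shares climb from 51.3% and 38.8% at 1 hotspot and flatten from 5 hotspots on, where the bins of the rule begin at 6.

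Overlap was higher in the hotspot-rich bins in every class of position. Gene-end hotspots are those up to 1 kb from the first or last base of a protein-coding gene. In Saos-2, 83.1% of gene-end hotspots in the members were overlapped against 79.6% in other bins, and in U2OS 78.4% against 69.0%. Inside genes the shares were 63.2% against 49.9% in Saos-2 and 63.8% against 42.0% in U2OS. Outside genes they were 68.4% against 52.0% and 62.3% against 36.8%. Gene ends thus showed the smallest difference between members and other bins in both lines.

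The significance of the hotspots in these bins was near that elsewhere, and the lines differed in direction. The median significance was 4.0 in Saos-2, against 4.07 in other bins, and 4.79 in U2OS, against 4.61. Saos-2 hotspots had a median width of 251 bp in members and 237 bp in other bins, and for U2OS these were 263 bp and 247 bp. The most significant 10% of each list made up 8.82% of the Saos-2 hotspots in members against 10.2% in other bins, and 10.5% of the U2OS ones against 9.94%. Gene-end hotspots in members were less significant than those elsewhere, with a median of 4.65 against 5.58 in Saos-2 and 5.76 against 6.46 in U2OS. Paired sites, with 1 Saos-2 hotspot facing 1 U2OS hotspot, had a Spearman correlation in significance of 0.44 over 4056 pairs in members and of 0.46 over 22943 pairs in other bins. These pairs are sites within the same 2 libraries and share their depth, and U2OS had the higher value in 60.9% of the pairs in members.

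Within single bins the agreement in position varied widely. The share of a bin's hotspots, both lines together, that were overlapped had a median of 68.8%, with 60.0% and 78.6% at the quartiles. In 10 bins every hotspot was overlapped, and in 75 bins fewer than 50% were. No member was without a shared hotspot, and the lowest share was 11.8%. Many sites in both lines therefore did not always mean the same sites.

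The surroundings of the members also held more hotspots than average. Of the 857 bins, 221 (25.8%, interval 22.97 to 28.8%) lay next to another member. Among the bins 100 kb from a member, 14.6% were members, compared with 2.98% of all bins. Both shares rest on the counts that the rule used. Joined to their neighbours, the bins formed 732 stretches, of which 636 were single bins, 74 had 2 bins, 17 had 3, 3 had 4 and 2 had 5. Bins 100 kb away that were not members themselves averaged 3.25 Saos-2 and 3.53 U2OS hotspots, compared with 1.56 and 1.98 in all bins outside the rule. At 1000 kb the means were still 2.20 and 2.76.

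**Figure D3:**
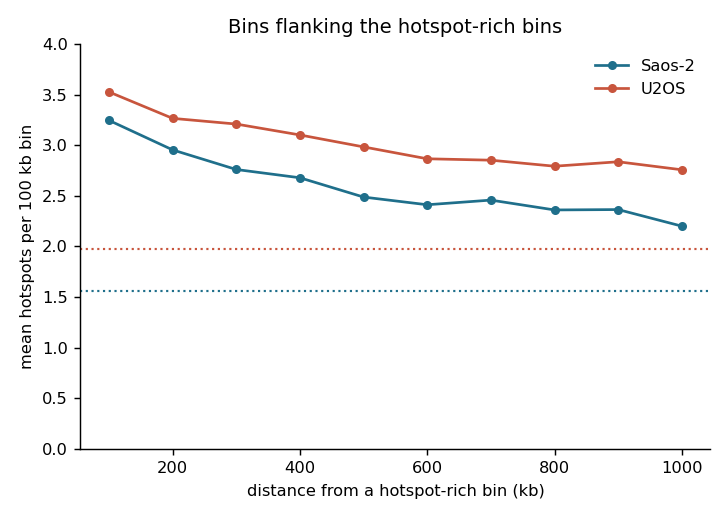
Mean hotspots per 100 kb bin (vertical axis) at increasing distance from a hotspot-rich bin (horizontal axis, kb) in Saos-2 and U2OS, with members among the flanking bins left out. Dotted lines give the mean of all bins outside the rule, 1.56 in Saos-2 and 1.98 in U2OS, and both lines stay above it out to 1000 kb.

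The 5-bin stretch on chromosome 11 from 62400001 to 62900000 held 44 Saos-2 and 40 U2OS hotspots. It runs from ASRGL1 to SLC3A2, the heavy chain of several amino acid transporters, and includes AHNAK, a very large scaffold protein, with 6 hotspots in each line, and the elongation factor gene EEF1G. The other 5-bin stretch lies on chromosome 2 from 46800001 to 47300000, with 33 and 45 hotspots and only MCFD2, TTC7A, STPG4 and CALM2. TTC7A, part of a lipid kinase complex at the plasma membrane, held 11 Saos-2 and 15 U2OS hotspots. Next came chromosome 1, where a stretch from 154900001 to 155300000 held 36 and 37 hotspots in 4 bins. It is dense in genes, among them the ephrins EFNA1, EFNA3 and EFNA4, the mucin MUC1 and the adaptor SHC1. The stretch on chromosome 2 thus reached the same 5 bins as that on chromosome 11 with fewer genes.

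Members were unevenly spread over the chromosomes. Chromosome 19 had the highest share, 8.19% of its bins (48 of 586), followed by chromosome 17 with 7.32% (61 bins) and chromosome 20 with 4.97%. Chromosome 1 had the most members, 122. Chromosomes 13 and 18 had 7 members each, 0.612% and 0.872% of their bins.

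Gene content moved with membership. A mean of 2.59 protein-coding genes touched a member (median 2, highest 13), compared with 1.05 (median 1) in other bins. Of the bins with no protein-coding gene, 1.23% (135 of 10999) were members. The share was 2.37% (249 bins) with 1 gene, 4.41% (253 bins) with 2 or 3, and 14.8% (220 of 1491) with 4 or more. Even so, 15.8% of the members had no protein-coding gene and 29.1% had 1. Overlap between the lines in members without a gene was 66.1% of Saos-2 and 64.7% of U2OS hotspots. It was 66.5% and 61.98% with 1 gene, 71.3% and 67.4% with 2 or 3, and 74.4% and 71.99% with 4 or more. In other bins it was 48.4% and 34.1% without a gene and 70.4% and 56.2% with 4 or more.

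Gene ends took a larger share of the hotspots in the members. In Saos-2 it was 23.7% (22.7 to 24.8%) against 19.7% in other bins, and in U2OS 23.4% (22.4 to 24.4%) against 17.6%. After hotspots less than 150 bp apart were merged, the Saos-2 shares came closer, at 20.6% against 19.2%. The share inside the span of a gene was 55.9% against 56.0% in Saos-2 and 54.0% against 51.7% in U2OS. More than 3 in 4 hotspots of the members thus lay away from the ends of protein-coding genes.

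Of 19126 protein-coding genes on chromosomes 1 to 22, 1667 (8.72%) had their midpoint in a hotspot-rich bin, and 2136 touched one. These genes were shorter than the rest, with a median span of 11.4 kb against 26.6 kb. A start position was given for 1350 of them. Of these, 830 (61.5%, interval 58.9 to 64.0%) had a hotspot of both lines within 1 kb of the start, compared with 43.3% of the other genes and 44.9% of all 15101 genes with a start. A start hotspot of Saos-2 alone was found at 64 genes, of U2OS alone at 101, and neither at 355. Where both lines had one, its median significance was 6.88 in Saos-2 and 9.10 in U2OS, below the 8.07 and 10.9 at the starts of other genes. A start hotspot also counts toward its bin, so these shares are not independent of the rule.

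Other kinds of gene were compared on the same footing. Of 439 transfer RNA genes, 64 (14.6%) lay in hotspot-rich bins, a higher share than that of protein-coding genes. The bins that these 64 genes occupy were not counted, and genes that share a bin are not independent. The share was 5.22% of lncRNAs (929 of 17795) and 3.14% of pseudogenes. Of 1461 microRNA hairpins, 116 (7.94%) lay in members. One such bin on chromosome 5, with 10 Saos-2 and 9 U2OS hotspots, held the hairpins of MIR143 and MIR145, which are known for their part in smooth muscle. They were picked after the values were seen. Their main mature forms follow, with the seed, bases 2 to 8, in capitals, and they do not share it.
hsa-miR-143-3p: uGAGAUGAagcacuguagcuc
hsa-miR-145-5p: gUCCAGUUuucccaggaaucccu

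The lists of named genes were read against the 8.72% of all protein-coding genes. They were chosen with earlier results of these data known, so their shares and intervals are a description and not a test. TGF-beta is a secreted signal that acts through receptor kinases and SMAD transcription factors, and Hippo signalling restrains the coactivators YAP and TAZ, which work with TEAD factors. Both act on a common set of matrix and cytoskeletal genes. Of 25 genes of the TGF-beta and Hippo list, 10 (40.0%, interval 23.4 to 59.3%) lay in hotspot-rich bins. The median bin of this list had 5 Saos-2 and 6 U2OS hotspots, against 2 and 3 for all protein-coding genes. On a grid moved by 50 kb 9 genes were members, and 7 were members on both grids.

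The ligand TGFB1 lay in a bin with 12 hotspots in each line. The receptor TGFBR2 was at the threshold, with 6 in each. Its transducer SMAD3 had 7 Saos-2 and 12 U2OS hotspots in its bin, and the inhibitory SMAD6 had 6 and 8. Among target genes, CCN1 and CCN2, secreted matricellular proteins, lay in bins with 13 and 7, and 11 and 7. AMOTL2, an angiomotin that binds YAP, had 8 and 13, ANKRD1 6 and 7, and the LIM protein gene AJUBA 9 and 6. Saos-2 thus had more hotspots around CCN1, CCN2 and AJUBA and U2OS more around AMOTL2 and SMAD3, each from 1 library. CCN2, ANKRD1 and SMAD6 were not in members on the moved grid. SKI (6 and 5), SKIL (7 and 5), AXL (5 and 6), PMEPA1 (5 and 6) and TEAD3 (5 and 9) missed the rule by 1 hotspot in 1 line. Of the other Hippo effectors in the list, YAP1 had 2 and 4, WWTR1, which encodes TAZ, 4 and 4, and TEAD1 3 and 5.

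Of 29 genes of the actin cytoskeleton and adhesion, 10 (34.5%, interval 19.9 to 52.7%) lay in members. They were the actins ACTB (9 Saos-2 and 12 U2OS hotspots in the bin) and ACTG1 (8 and 8), the actin-binding genes ACTN1 (6 and 10), ACTN4 (7 and 8), PFN1 (8 and 6), CFL1 (6 and 7) and TPM1 (7 and 9), the myosin gene MYH9 (8 and 7), the focal adhesion gene PXN (8 and 8), and PDLIM7 (7 and 6). This count depended on where the bins began. On the grid moved by 50 kb only 3 genes were members, PDLIM7, CFL1 and ACTN4. The median bin of the list held 5 and 6 hotspots. Actin-related genes outside the rule included FLNC (6 and 5) and CALD1 (4 and 6), and, with lower counts, VCL (1 and 4), TAGLN (3 and 3) and MYL9 (0 and 5). The span of VCL nevertheless touched a member.

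Housekeeping genes gave a similar share, 8 of 23 (34.8%, interval 18.8 to 55.1%), and 5 on the moved grid. GAPDH had 7 and 10 hotspots in its bin, CHMP2A 8 and 10, YWHAZ 8 and 8, PPIA 6 and 7 and PSMB4 6 and 6. ACTB stands in this list too, and the median bin of the list held 5 Saos-2 and 5 U2OS hotspots. The intervals of the 3 lists overlapped. On the moved grid the TGF-beta and Hippo list had 36.0% and the housekeeping list 21.7%, at 5 hotspots per line 64.0% and 43.5%, and at 8 they had 12% and 17.4%, so their order depended on the setting.

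**Figure D4:**
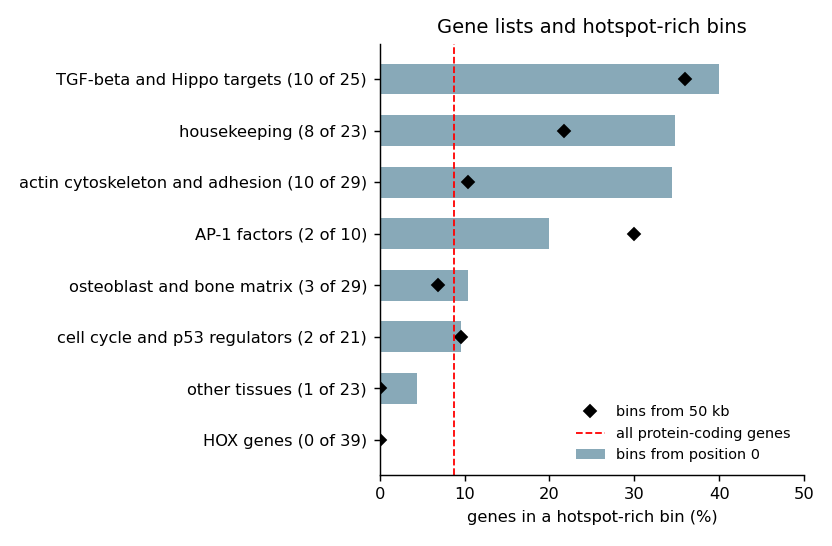
Percent of the genes of each list whose midpoint lay in a hotspot-rich bin (horizontal axis), with bars for bins counted from position 0 and diamonds for bins moved by 50 kb, and a dashed line at the 8.72% of all protein-coding genes. The TGF-beta and Hippo list keeps a high value on both grids, at 10 and 9 of 25 genes, whereas the actin list goes from 10 to 3 of 29.

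The counts were also read by how many genes share a bin. Over all protein-coding genes, 2.78% were in members where the bin held 1 gene, 4.60% where it held 2 or 3, and 18.3% where it held 4 or more. The TGF-beta and Hippo list had 4 of 11, 3 of 9 and 3 of 5 in these classes, and the actin list 3 of 11, 3 of 5 and 4 of 13. The housekeeping list had 1 of 4, 4 of 13 and 3 of 6. At a threshold of 5 hotspots, 16 of the 25 TGF-beta and Hippo genes were members, with 15.2% of all genes. At 8 hotspots 3 were, with 2.40% of all genes. With only the top 50% of each hotspot list by significance, 0 genes of the TGF-beta and Hippo list or the actin list were members. The housekeeping list had 1 member there, with 0.722% of all genes.

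Among 10 AP-1 factor genes 2 (20%, interval 5.67 to 51.0%, against 8.72% of all genes) were members. These were JUN (6 and 10) and FOSL1 (6 and 7), which were in members on both grids. FOSL2, with 2 and 8, was a member on the moved grid only, which gave 3 of 10 there (30%, against 8.77% of all genes). FOS had 3 and 8 hotspots in its bin and FOSB 5 and 11, below the rule through Saos-2. JUNB (7 and 4) and BATF3 (6 and 5) were below it through U2OS. Of 29 genes of osteoblasts and bone matrix 3 (10.3%) were members: BGLAP, which encodes osteocalcin (11 and 8), SPARC, a collagen-binding protein of bone (6 and 9), and TNFRSF11B, the decoy receptor osteoprotegerin (6 and 6). On the moved grid 2 were members (6.90%, against 8.77% of all genes), without TNFRSF11B, and at 5 hotspots per line 8 were (27.6%, against 15.2%), so the list lay on either side of all genes. The lineage regulators RUNX2 (6 and 3) and SP7 (8 and 5) reached 6 in Saos-2 only, and ALPL (5 and 11) and COL1A1 (1 and 9) in U2OS only. These 4 genes thus had uneven counts, each from 1 library per line.

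Of 21 cell cycle and p53 pathway genes 2 (9.52%, against 8.72% of all genes) were members. They were CDKN1A (6 and 8), the p53-induced inhibitor p21, and CCND3 (9 and 7). The moved grid also had 2 members, which were TERT and CDKN1B instead. Of 39 HOX genes 0 were members, which by the Wilson interval allows a share of up to 8.97%, but these genes occupy only 9 bins and are not independent. Of 23 marker genes of other tissues, GFAP (6 and 6), a glial filament gene, was the only member, and no gene of that list was on the moved grid.

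The richest bin of all lay on chromosome 13 from 110300001 to 110400000, with 20 Saos-2 and 9 U2OS hotspots. All of them fell inside COL4A2, which encodes a chain of the type IV collagen of basement membranes. COL4A2 spans 205.9 kb, held 28 Saos-2 and 16 U2OS hotspots, and had none within 1 kb of its start in either line. All 9 U2OS hotspots of the bin were overlapped by Saos-2, and 11 of the 20 Saos-2 hotspots were found in that line alone. The Saos-2 sites reached a significance of 11.5 and the U2OS sites 12.8. The bin thus held U2OS sites nested in a larger Saos-2 set.

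The bin of KRT8 and KRT18 on chromosome 12, from 52900001 to 53000000, showed the opposite balance, with 7 Saos-2 and 17 U2OS hotspots. These genes encode the keratin pair of simple epithelia. A site at 52927062 to 52927771 in U2OS had a significance of 22.6 and overlapped a Saos-2 site of 13.9. These were also the highest values within 1 kb of the RefSeq promoter start of KRT8, which thus had hotspots of both lines. No such start was given for KRT18. U2OS alone had a hotspot at 52949723 to 52950111, with a significance of 18.3, where the annotated spans of KRT8 and KRT18 meet. Of the 7 Saos-2 sites 6 were shared, so that here most of the Saos-2 set lay within the U2OS set.

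On chromosome 19, from 41300001 to 41400000, 12 hotspots of each line spread over 7 genes from HNRNPUL1 through TGFB1 to BCKDHA. There 10 Saos-2 and 11 U2OS hotspots were shared, 87.5% in all. The strongest was the hotspot of the BCKDHA and EXOSC5 promoters printed above. At the start of TGFB1 the significance was 3.57 in Saos-2 and 2.62 in U2OS. A site inside TGFB1 at 41340007 to 41340332 reached 14.8 in U2OS and overlapped a Saos-2 site of 1.847.

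A bin at the start of SMAD3, named for its low overlap, had many sites in both lines with few in common. It is not the bin of the gene's midpoint given above. The bin on chromosome 15 from 67000001 to 67100000 contains the start of SMAD3 and the region before it. It held 7 Saos-2 and 11 U2OS hotspots, of which 2 in each line were shared, 22.2% in all. The strongest U2OS sites, at 67049195 to 67050363 with a significance of 50.8 and at 67044194 to 67044789 with 38.8, had no Saos-2 counterpart. Both lay before the annotated span of SMAD3, which begins at 67065602. No Saos-2 site in the bin exceeded 4.70.

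**Figure D5:**
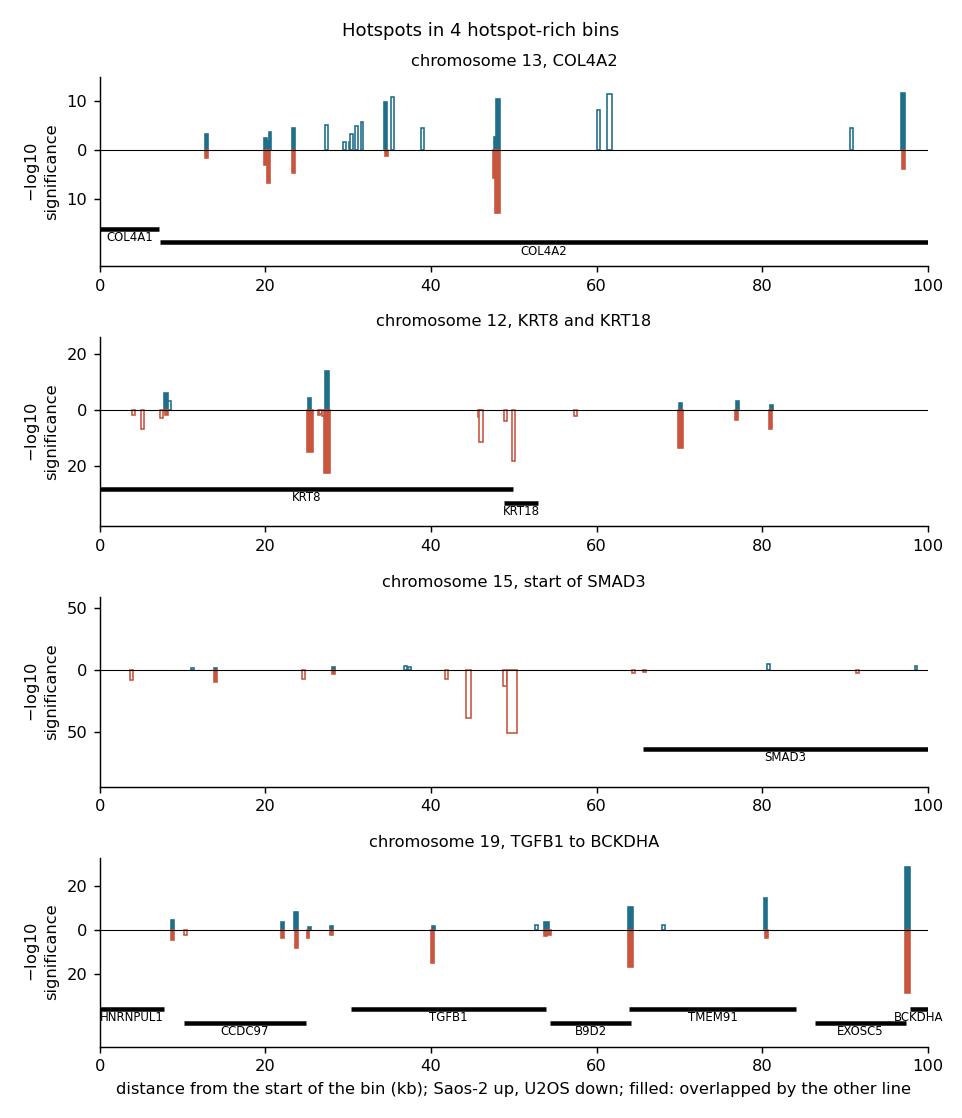
Hotspots along 4 hotspot-rich bins (horizontal axis, kb from the start of the bin), with Saos-2 bars upward and U2OS bars downward, bar height as −log10 significance on a scale of its own in each panel, filled bars overlapped by the other line, and black bars for protein-coding genes. COL4A2 has 11 open Saos-2 bars, KRT8 and KRT18 have mostly open U2OS bars, the bin with the start of SMAD3 has 2 filled bars per line, and the bin from TGFB1 to BCKDHA is mostly filled.

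Among the other bins with the most hotspots, PLEKHG3 and SPTB on chromosome 14 shared a bin with 15 Saos-2 and 13 U2OS hotspots. SPTB, a spectrin of the membrane skeleton, had a site at 64788740 to 64789108 with a significance of 25.03 in U2OS and an overlapping Saos-2 site of 3.22. A Saos-2 site of 17.5 at 64763814 to 64764253 had no U2OS overlap. The bin of EPHA2, an ephrin receptor kinase, held 14 and 11, with 64.0% overlapped. CSRNP1, a nuclear protein induced by axin, contributed 8 Saos-2 and 7 U2OS hotspots to a bin of 11 and 13 on chromosome 3.

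ZMYND8, a chromatin reader on the minus strand, started in a bin of 10 and 16 hotspots on chromosome 20. At its start the significance was 5.31 in Saos-2 and 5.80 in U2OS. Its U2OS sites inside the gene at 47317294 to 47317631 and 47334065 to 47334605 had a significance of 17.2 and 28.2. The first overlapped a Saos-2 site of 1.77, and the second had no overlap. On chromosome 22, the bin from HORMAD2 to TBC1D10A held 9 and 15 hotspots. It includes the cytokine genes LIF and OSM, neither of which contained a hotspot in its span. The strongest site there lay at the end of HORMAD2, at 30206856 to 30207504, with 41.1 in U2OS, and its Saos-2 overlap had 3.39.

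In a pair of gene-dense bins among the 12, most hotspots lay at gene ends. On chromosome 12 from 56100001 to 56200000, 9 genes from ERBB3 to SMARCC2, including PA2G4, ribosomal RPL41 and myosin light chain MYL6, shared 11 Saos-2 and 14 U2OS hotspots. Of these 8 and 10 were at gene ends, and 88% were overlapped. On chromosome 19 from 49800001, the bin from AP2A1 to IL4I1 held 11 and 15, with 8 and 12 at gene ends. The bin of MDC1, TUBB, FLOT1 and IER3 on chromosome 6 differed between the lines beyond its promoters. Its sites at MDC1 and at TUBB, the tubulin gene, were shared, whereas 5 consecutive Saos-2 sites between 30782578 and 30787158 and another at 30787898 to 30788307, with a significance of 21.3, had no U2OS overlap.

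The largest imbalance toward U2OS was in the bin of RIN1, BRMS1 and SLC29A2 on chromosome 11 from 66300001, with 6 Saos-2 and 17 U2OS hotspots (log2 ratio 1.5). One region there, from 66312146 to 66313092, was listed as 5 hotspots in U2OS and as 3 in Saos-2. The bin of KRT8 and KRT18 came next. After it stood ABLIM1, an actin-binding LIM protein gene, with 6 and 14, CREB3L1, a transcription factor of the secretory pathway, with 6 and 13, and the bin of DDX47 and GPRC5A with 7 and 14.

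Toward Saos-2, the bin of LRRC8D and ZNF326 on chromosome 1 had 14 and 6 hotspots (log2 ratio -1.22). All 6 U2OS sites there were shared. The bin of SOCS3, a feedback inhibitor of cytokine signalling, and PGS1 had 16 and 7. Of its 7 U2OS sites 6 were shared. OSBPL9 and the lncRNA SLC44A3-AS1 lay in bins of 13 and 6 each.

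Complete overlap was found for a bin on chromosome 22 from 34800001 with 9 hotspots in each line and no protein-coding gene, only the lncRNA LINC02885. Its highest significance was 9.61 in Saos-2 and 18.9 in U2OS. Bins of COPG1 and HMCES (8 and 8), of ODF2, GLE1 and SPTAN1, of FOSL1 to EIF1AD, and of TMPRSS5 (7 and 7 each) were also completely shared. The lowest share, 11.8%, was in the bin of CLU and SCARA3 on chromosome 8, with 7 Saos-2 and 10 U2OS hotspots. CLU encodes the extracellular chaperone clusterin. The 1 shared site, at 27616802 to 27617700 in U2OS, had a significance of 51.7 there and 2.17 in Saos-2. HMGA2, an architectural chromatin protein gene, had 6 and 11 hotspots in its bin with 23.5% overlapped, and U2OS alone had sites at its lower-coordinate end.

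Counted by gene span within members, EXT1, which encodes a polymerase of heparan sulfate, had the most, 27 Saos-2 and 25 U2OS hotspots in 3 bins. COL4A2 followed with 27 and 15, and the cytolinker gene DST with 17 and 21. SCHIP1 and the readthrough gene IQCJ-SCHIP1 had 19 and 17, which are the same sites. FRMD6, a FERM protein gene, had 18 and 16, MICAL2, an enzyme that oxidises actin, 16 and 17, and SPTB 17 and 15. SEPTIN9 had 19 and 13, GSE1 17 and 15, BCAR3 17 and 14, and palladin (PALLD), a scaffold of actin bundles, 14 and 17. The planar polarity gene PRICKLE2 had 12 and 17, FGGY 16 and 12, PPM1H and the protein kinase C gene PRKCE 15 and 13 each, TTC7A 11 and 15, ASAP1 13 and 12, the myosin light chain kinase MYLK 13 and 11, and GNG12 13 and 10. Long genes offer more room for hotspots, and the spans of these 20 run from 132.0 to 828.0 kb. At the table's start, 9 of the 18 with a start had a hotspot of both lines and 9 had none in either, with SCHIP1 and IQCJ-SCHIP1 both among the latter.

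The 135 members without a protein-coding gene had a median distance of 68.8 kb to the nearest one, and 78 lay within 100 kb. A named lncRNA touched 58 of them. The median share of overlapped hotspots was 66.7%. The first by count was the bin on chromosome 8 from 127800001, inside the lncRNA PVT1, with 13 Saos-2 and 11 U2OS hotspots, of which 9 and 11 were shared. It lies 57.0 kb from MYC, whose own bin held 4 and 7 and was no member. In that bin a Saos-2 site at 127851243 to 127852447 had a significance of 37.9 and overlapped 2 U2OS sites of 7.95 and 3.19. At 127803357 to 127803750 the order was opposite, with 22.04 in U2OS and 3.79 in Saos-2. A second PVT1 bin from 128100001 had 14 and 8 hotspots with 54.5% overlapped.

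Further members without a protein-coding gene included a bin on chromosome 22 from 27100001 with 8 and 15 hotspots, 469.3 kb from CRYBA4. The bin of LINC-PINT on chromosome 7 had 14 and 8. The most isolated was on chromosome 19 from 27600001, with 12 and 10 hotspots, 1505 kb from UQCRFS1. There 6 Saos-2 and 7 U2OS hotspots were shared, and the highest significance was 8.11 in Saos-2 and 7.17 in U2OS.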

How the data were processed

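DNase-seq was analysed from 1 library each of Saos-2 and U2OS. Per the submitters' processing notes, Trimmomatic 0.38, BWA 0.7.15 and hg38 were used. The hotspot caller, read filters and treatment of duplicate reads are not given in the sources used here. The deposited lists hold no header. Their positions were used as the authors deposited them. The authors' deposited −log10 value of each hotspot starts at 1.30, which is −log10 of 0.05, and is capped at 100, and it was used only to describe hotspots. The authors' deposited score is a rounded multiple of it and was not used. The number of reads is unknown, and a deeper library yields more hotspots.

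Hotspots were counted in 100 kb bins with Python 3.11.15, numpy 2.4.6, pandas 2.3.3 and scipy 1.17.1, and the overlap and bin code was tested on simulated data. Positions in text are 1-based. Gene spans came from RefSeq on GRCh38.p14. Promoter starts and sequences, and mature microRNAs, came from RefSeq tables, and a start was matched for 15101 of 19126 protein-coding genes. A gene belongs to the bin of its midpoint. All genes of the lists were matched by symbol on chromosomes 1 to 22, apart from 1 each of 4 lists and 2 housekeeping genes on other chromosomes.

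The genes and bins named were those with the most hotspots (12), the highest and lowest ratio and overlap (5 each), the longest stretches (3), the 20 genes with the most hotspots in members, and list genes. Some items that the rule selects are not reported here. Values of genes outside the rule were picked after they were seen. The members and lists were chosen with earlier results of these data known. Neighbouring hotspots are not independent. Alternatives were a grid moved by 50 kb, thresholds of 5 and 8, merging below 150 bp, lists of equal length, the top 50% of each list, stricter overlap, and other definitions of gene ends and membership.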

Additional observations from a re-analysis of the deposited data

Results flagged for a closer look

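Chromosome X was outside the rule, and 14 of its 100 kb bins met both thresholds. Their counts ran from 6 to 9 in Saos-2 and from 6 to 8 in U2OS. The bins from 45700001 and 45800001 adjoin each other, as do those from 48400001 and 48500001. They appear here as a signal outside the compared chromosomes.

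A further 4 bins met the thresholds but were left out for a chain of closely spaced hotspots. The bin on chromosome 10 from 41800001 had 28 Saos-2 and 6 U2OS hotspots, with 13 of the former in 1 chain. On chromosome 16 the bins from 34500001 and 46300001 had 20 and 10, and 21 and 8, with Saos-2 chains of 16 and 18. On chromosome 5 the bin from 49600001 had 9 and 14, with a U2OS chain of 10.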

How the results depend on the processing

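No paired analysis was possible because each line was 1 library. Of 228 values recomputed under alternatives, 65 main ones stayed close to their value and 33 moved, as did 71 and 59 of the others. Close meant a share inside its main Wilson interval or a median between the main quartiles of single hotspots. For counts it allowed a change from 857 to 575 bins, with lists of equal length. With the top 50% of each list, U2OS medians of 9.66 in significance and 378 bp in width counted as close to 4.79 and 263 bp. Leaving out only bins with 8 hotspots of a chain gave the main values unchanged and is in the tally. Members exceeded other bins in overlap and gene-end share under every setting run. With at least 5 hotspots per line there were 1656 bins and 2911 genes, and 37.4% of bins had a member beside them. With at least 8 there were 202 bins, 459 genes, 13.4% with a member beside them, and a U2OS overlap of 69.0%. The top 50% of each list left 37 bins, all among the 857, and 138 genes, with 0 bins beside another, overlaps of 76.2% in Saos-2 and 77.3% in U2OS, gene-end shares of 40.5% and 41.7%, a Saos-2 median significance of 8.76 and a Saos-2 median width of 377.5 bp. Merging below 150 bp left 674 bins, with overlaps of 71.7% and 68.9%, gene-end shares of 20.6% and 20.7%, and 22.1% beside another. Lists of equal length gave overlaps of 68.1% and 71.3%, which put U2OS above Saos-2, and 20.3% beside another. An overlap of 50% of both hotspots gave 52.6% and 50.7%. Gene ends within 500 bp held 19.9% and 19.4%, within 2.5 kb 29.8% and 29.5%, and ends of all annotated genes 30.9% in each line. The grid moved by 50 kb had 29.2% of bins beside another. It shared 551 of the 857 bins by overlap and 791 of the 1667 genes (47.5%), so single genes depend on the grid. The overlap in members exceeded that in other bins by 9.52 to 19.6 percentage points in Saos-2 and 16.7 to 31.9 in U2OS, and the gene-end share by 1.31 to 15.8 and 3.50 to 19.5. For overlap, these other bins include those with hotspots of 1 line only, which widens the difference. Other bins with a hotspot of both lines were compared in the main setting only. There the overlap was 69.9% in members against 60.7% in Saos-2, and 66.6% against 53.04% in U2OS. Read depth is unknown, so counts per line may follow depth.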
